A study of Mus musculus with 22 samples.

Results

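Hox genes encode homeodomain transcription factors that set position along the body axis in the embryo and help to control self-renewal and differentiation in blood-forming cells. In mammals they lie in 4 clusters, Hoxa to Hoxd. Within a cluster all genes but a few noncoding partners are read in one direction, and they are numbered in paralogue groups from 1 at the 3′ end to 13 at the 5′ end. Genes with the same number in different clusters descend from one ancestral gene. The clusters are classical targets of Polycomb repression, and acetylation of histone H3 at lysine 27 (H3K27ac) marks active promoters and enhancers.

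The genes described here are the Hox genes of the 4 clusters. Membership was set by name and position, not by a measured value, although the topic was chosen with earlier results of these data known. Of these genes, 38 were analysed among 21938 protein-coding genes of the annotation. Hoxa and Hoxb each contributed 10 genes, and Hoxc and Hoxd each contributed 9. One further gene that the rule counts was not analysed here. Each cluster was examined from its first to its last gene with 20 kb added at both ends. A peak was assigned to a gene when it lay within 2.5 kb of an annotated transcription start site (TSS) of that gene, and is then called TSS-proximal.

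H3K27ac was measured by chromatin immunoprecipitation sequencing (ChIP-seq) in KL cells, the lineage-negative, cKIT-positive, Sca-1-negative fraction of mouse bone marrow that holds myeloid progenitors. All 3 libraries came from BcorΔE9-10 animals, which carried the floxed allele Bcorfl/y and the transgene scl-Cre-ERT on a C57BL/6 background. Tamoxifen at 1 mg per day for 5 days, given at an age of 3 to 6 months, activated the Cre recombinase, and cells were taken 20 weeks later. The transgene is driven by a stem cell element of the Scl gene, so recombination starts in stem cells and reaches KL cells by descent. The other 19 of the 22 samples, among them the BcorWT libraries for other histone marks, were left aside. BcorWT cells had no H3K27ac library analysed here, so nothing below compares genotypes. Hoxa7 and Hoxa9 had been singled out by the study in part on these same libraries, and their acetylation is therefore not independent evidence.

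The libraries, replicates 1 to 3, held 23410, 25963 and 23758 peaks at depths of about 18.0, 18.9 and 19.3 M reads recovered from the peak lists. TSS-proximal peaks were found in all 3 libraries at 9 of 9 genes listed as markers of myeloid progenitors, the cell type on the label. Of all protein-coding genes, 43.9% had one in all 3 libraries and 46.9% in at least 2. At least 2 libraries held one at 1 of 8 stem cell genes (Hlf), 0 of 6 mature myeloid genes, 1 of 4 erythroid genes (Klf1), 0 of 4 lymphoid genes and 1 of 8 stromal or endothelial genes (Pecam1). These gene lists were drawn up with earlier results of these data known, so the counts are not an independent check of cell type. The peak lists hold called peaks only. Fragments were solved for a sample of 1525 of 30492, 1706 of 34106 and 1637 of 32734 summits in the 3 libraries. The weakest of these held 8, 8 and 9 fragments. Such counts are not a fixed floor, because summits are scored against local background. Acetylation of a Hox gene too weak to be called would not be seen. In a cell population, few acetylated cells and weak acetylation in every cell cannot be told apart.

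Acetylated Hox genes were few and were confined, in these 3 libraries, to the Hoxa and Hoxb clusters. A TSS-proximal peak was present in all 3 libraries at 5 of the 38 genes, Hoxa3, Hoxa4, Hoxa7, Hoxa9 and Hoxb4. The share is 13.2%, against 43.9% of all protein-coding genes with such a peak in all 3 libraries and 46.9% in at least 2. With a TSS window of 5 kb the count was 8, with Hoxa6, Hoxa10 and Hoxb3 added, against 45.5% of all protein-coding genes. Within 2.5 kb, Hoxa6 and Hoxa10 had a peak in 1 library each, and 31 genes had none in any library. By cluster, the genes with a peak in all 3 libraries were 4 of 10 in Hoxa, 1 of 10 in Hoxb, 0 of 9 in Hoxc and 0 of 9 in Hoxd. By paralogue number they were 3 of 11 in groups 1 to 4, 1 of 11 in groups 5 to 8 and 1 of 16 in groups 9 to 13. Hoxa3 counts in groups 1 to 4 only through its most upstream starts, which lie between Hoxa6 and Hoxa7.

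**Figure D1:**
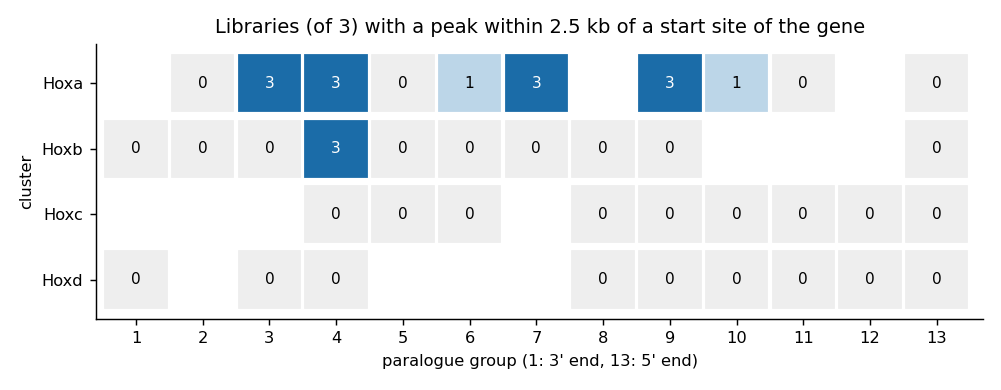
Number of libraries, of 3, with an H3K27ac peak within 2.5 kb of a start site, for each Hox gene analysed, by paralogue group (x axis) and cluster (y axis). Darker cells mark more libraries, and empty positions hold no gene analysed here. The 5 genes found in all 3 libraries lie in Hoxa and Hoxb, and both other rows are 0 throughout.

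The sequences that follow are the stretches on which these results turn. They are taken from RefSeq on GRCm38.p6, and each promoter runs from 250 bases before an annotated start to 50 after it. Promoter sequences were matched for 22 of the 38 genes. All are written 5′ to 3′ on the strand of the genes. Capitals mark matches, on either strand, to any of 6 motifs: the TATA box TATAAA, the CCAAT box CCAAT, the GC box GGGCGG, the Hox–Pbx motif TGATTNAT, the Meis motif TGACAG and the Ets motif CCGGAA. No 2 matches overlap in the sequences printed. The first is the distal promoter of Hoxa3 at chr6:52213018-52213317, which held the highest summits of all 4 clusters by fold enrichment.
Hoxa3: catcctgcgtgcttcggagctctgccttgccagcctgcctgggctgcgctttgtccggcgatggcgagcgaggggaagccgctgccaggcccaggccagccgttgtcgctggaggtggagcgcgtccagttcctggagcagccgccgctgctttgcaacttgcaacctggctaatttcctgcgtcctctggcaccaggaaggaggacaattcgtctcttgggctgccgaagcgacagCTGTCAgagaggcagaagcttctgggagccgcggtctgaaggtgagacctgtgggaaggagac
The promoter of Hoxa7 at chr6:52218524-52218823 belongs to one of its upstream start sites and its downstream part lies inside a peak in replicates 1 and 3.
Hoxa7: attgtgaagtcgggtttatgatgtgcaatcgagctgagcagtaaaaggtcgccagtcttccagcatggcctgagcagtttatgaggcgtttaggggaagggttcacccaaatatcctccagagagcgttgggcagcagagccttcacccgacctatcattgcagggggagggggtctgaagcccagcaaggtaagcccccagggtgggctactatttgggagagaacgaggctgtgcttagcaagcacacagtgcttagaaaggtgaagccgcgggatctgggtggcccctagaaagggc
The promoter of Hoxa9 at chr6:52227321-52227620 lay in a gap between peaks in every library.
Hoxa9: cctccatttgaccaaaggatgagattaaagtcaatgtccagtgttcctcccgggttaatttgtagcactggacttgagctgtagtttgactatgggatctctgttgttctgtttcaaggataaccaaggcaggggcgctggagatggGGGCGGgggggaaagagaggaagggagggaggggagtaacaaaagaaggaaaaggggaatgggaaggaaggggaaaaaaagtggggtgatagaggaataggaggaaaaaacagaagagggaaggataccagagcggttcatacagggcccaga
The promoter of Hoxb4 at chr11:96318017-96318316 is the only Hoxb promoter with a TSS-proximal peak.
Hoxb4: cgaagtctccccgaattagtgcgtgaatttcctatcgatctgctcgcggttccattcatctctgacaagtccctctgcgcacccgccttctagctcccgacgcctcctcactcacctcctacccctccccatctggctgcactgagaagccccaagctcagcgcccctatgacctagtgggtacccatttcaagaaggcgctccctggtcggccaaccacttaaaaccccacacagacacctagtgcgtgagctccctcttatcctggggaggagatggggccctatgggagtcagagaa
The promoter of Hoxd4 at chr2:74721728-74722027, of the same paralogue group as Hoxb4, had no peak within its whole cluster and is shown for contrast.
Hoxd4: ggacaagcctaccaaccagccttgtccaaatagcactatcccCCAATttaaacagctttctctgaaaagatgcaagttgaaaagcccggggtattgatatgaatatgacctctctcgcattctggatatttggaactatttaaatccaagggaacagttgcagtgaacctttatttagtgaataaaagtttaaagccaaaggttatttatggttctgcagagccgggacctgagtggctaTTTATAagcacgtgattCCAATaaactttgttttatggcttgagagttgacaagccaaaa
The remaining pair are 300-base windows around recurrent summits between Hoxb5 and Hoxb4, where no Hox gene has an exon. The window at chr11:96314708-96315007 is the nearer to the microRNA gene Mir10a.
Window near Mir10a: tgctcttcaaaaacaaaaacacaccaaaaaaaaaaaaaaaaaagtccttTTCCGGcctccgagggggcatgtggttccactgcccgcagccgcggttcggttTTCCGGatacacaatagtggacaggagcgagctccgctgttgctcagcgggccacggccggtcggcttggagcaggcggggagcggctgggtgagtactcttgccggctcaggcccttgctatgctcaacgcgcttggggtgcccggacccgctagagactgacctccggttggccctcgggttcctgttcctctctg
The window at chr11:96311785-96312084 lies further towards Hoxb5.
Window towards Hoxb5: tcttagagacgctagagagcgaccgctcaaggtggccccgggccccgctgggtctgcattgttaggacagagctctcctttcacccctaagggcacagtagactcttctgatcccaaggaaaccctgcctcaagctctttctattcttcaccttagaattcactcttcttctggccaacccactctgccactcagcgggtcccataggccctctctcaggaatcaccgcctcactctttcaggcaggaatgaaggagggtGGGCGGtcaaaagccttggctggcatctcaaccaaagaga

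The Hoxa3 promoter held 1 Meis motif, and the Hoxa9 promoter held 1 GC box. Neither the Hoxa7 nor the Hoxb4 promoter matched any of the 6 motifs. The Hoxd4 promoter held 1 TATA box and 2 CCAAT boxes. Across the 24 promoters matched to the Hox genes, 15 held a CCAAT box, 10 a GC box, 4 a TATA box and 2 each a Hox–Pbx, Meis or Ets motif. Of all 32817 promoters of that length in the table, 37.4% held a CCAAT box, 35.6% a GC box, 13.6% a TATA box, 3.22% a Hox–Pbx motif, 19.2% a Meis motif and 14.9% an Ets motif. The window near Mir10a held 2 Ets motifs, and 16.9% of the 14280 windows of 300 bases around summits of regions found in all 3 libraries held at least 1. The other window held 1 GC box, as did 42.0% of those windows. These matches describe letters and say nothing of binding.

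Promoters of Hox genes with a peak in at least 2 libraries overlapped the others in base composition. Hoxa4 had no promoter sequence and is missing, and the others include Hoxa6 and Hoxa10, with a peak in 1 library each. The 4 promoters of genes with a peak in at least 2 libraries had a G+C content of 49.7% to 64.0% with a median of 56.8%, and the other 20 had 39.7% to 81.0% with a median of 58.3%. The ratio of observed to expected CpG, a measure of how far a sequence resembles a CpG island, had a median of 0.499 in the 4 and 0.770 in the 20. The 4 values ran from 0.280 to 0.657 and lay within the range of the others, 0.257 to 1.02.

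The Hoxa cluster, on the minus strand of chromosome 6, carried most of the acetylation. With its flanks it spans 138 kb of GRCm38 (chr6:52142417-52280880) and held 14 peaks in each library. The peaks covered 6.43%, 5.00% and 7.03% of the window in the 3 libraries (mean 6.15% ± 1.05, SD, n = 3). Over all chromosomes 0.476% ± 0.0288 (SD, n = 3) of bases lay inside a peak. Hoxb (chr11:96174316-96388256) held 4, 4 and 5 peaks and was covered over 0.953%, 1.29% and 1.09% of its window, a mean of 1.11% ± 0.171 (SD, n = 3). Hoxc (chr15:102901103-103056852) and Hoxd (chr2:74648310-74785142) held 0 peaks in every library.

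**Figure D2:**
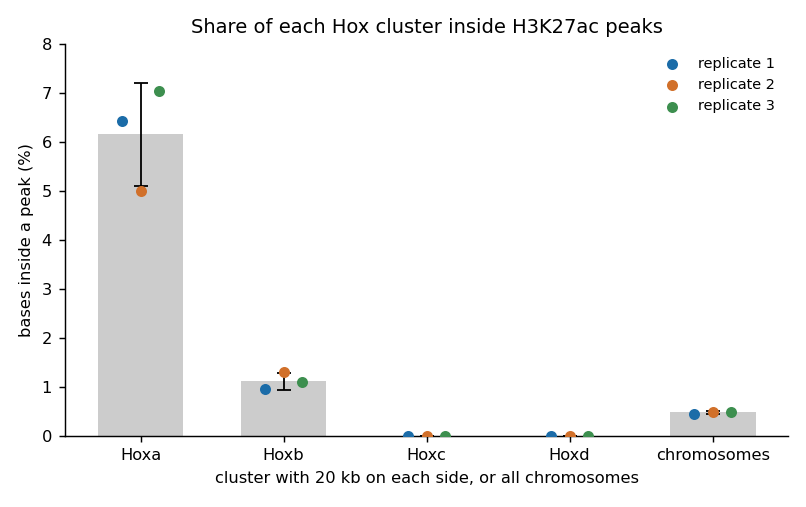
Percentage of bases inside an H3K27ac peak (y axis) in each Hox cluster with 20 kb on both sides, and over all chromosomes (x axis). Bars show the mean and error bars the SD of 3 libraries, and points are single libraries. Hoxa lies at 5.00% to 7.03%, Hoxb at 0.953% to 1.29%, and Hoxc and Hoxd at 0.

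Hoxa was covered over more of its window than Hoxb in 3 of 3 libraries, by 5.48, 3.71 and 5.94 percentage points (mean 5.04 ± 1.18, SD, n = 3). The difference from Hoxc, and equally from Hoxd, was 6.15 ± 1.05 points and was positive in 3 of 3 libraries. An exact two-sided sign-flip permutation test over the 3 libraries gave p = 0.25 for each of these 3 differences, which is the smallest p that 3 libraries allow. No difference between clusters can therefore pass a threshold of 0.05 here, although the 3 values of Hoxa did not overlap those of any other cluster.

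From Hoxa2 to Hoxa13, the called peaks of Hoxa sat in the middle and left both ends free. Replicate 3 held a further peak in the flank, 3.63 kb beyond Hoxa2. Counting from the first gene analysed, Hoxa2, no peak lay within the first 29.6, 29.0 and 28.6 kb at the 3′ end in the 3 libraries. At the 5′ end, counted back from Hoxa13, 30.0, 31.3 and 30.5 kb held no peak. Between them stood a small group of 1 or 2 peaks at Hoxa4 and a dense block from the distal Hoxa3 promoter to the far side of Hoxa9, beginning in replicate 2 with the peak near Hoxa6. The block held 13, 12 and 11 peaks over 18.4, 20.0 and 18.9 kb, and 46.4%, 32.5% and 44.6% of its bases lay inside a peak. It made up 18.7%, 20.3% and 19.2% of the distance from Hoxa2 to Hoxa13.

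**Figure D3:**
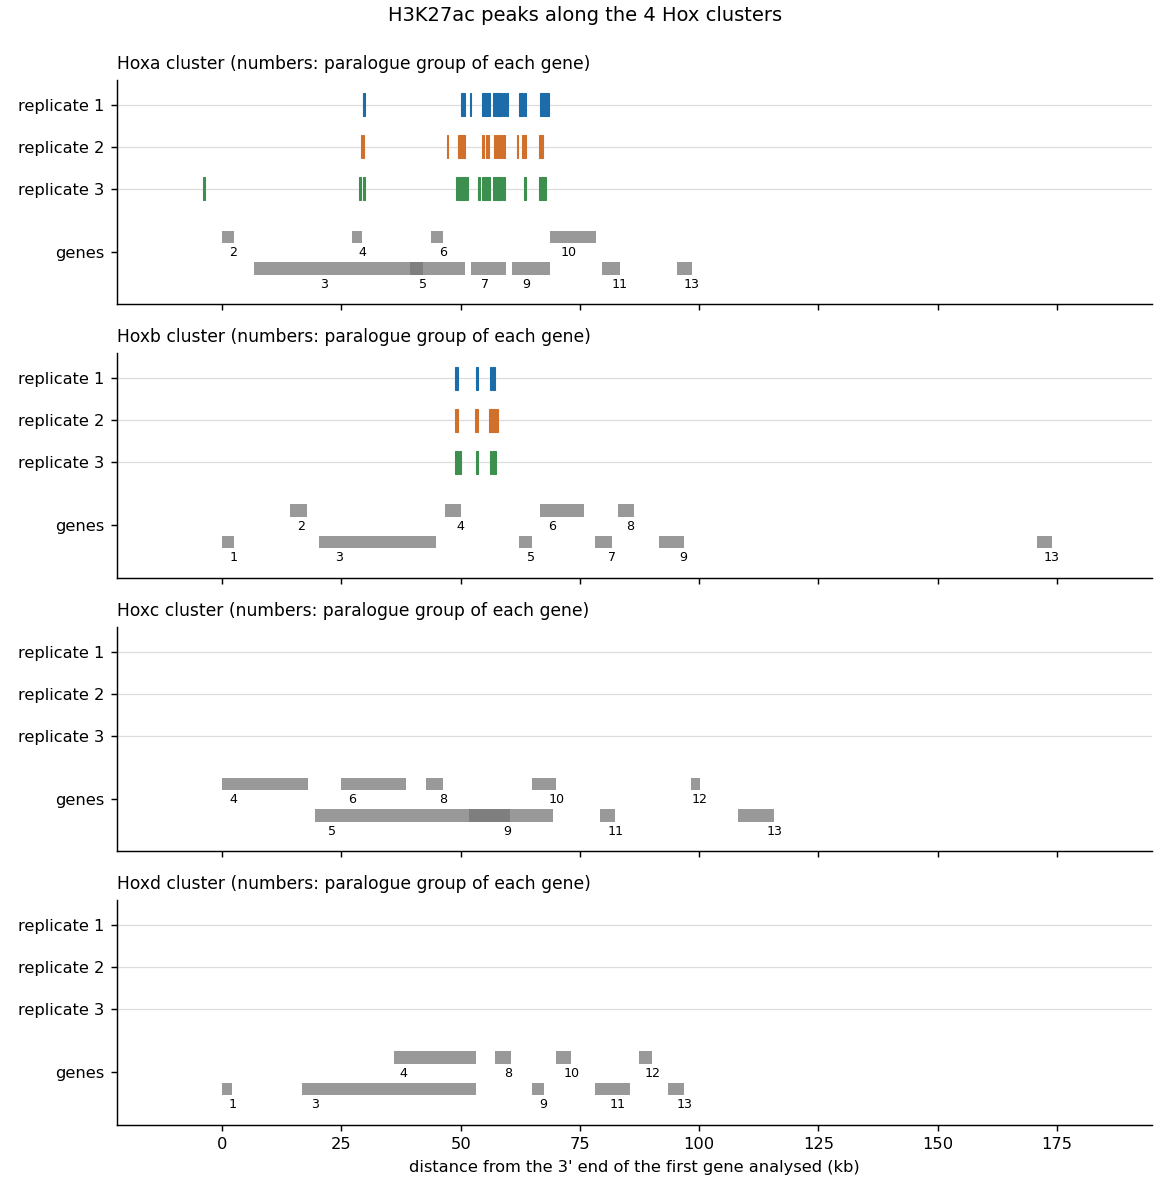
H3K27ac peaks (coloured bars, one row for each of 3 libraries) and genes (grey bars, numbered by paralogue group) along the 4 Hox clusters. The x axis is the distance in kb from the 3′ end of the first gene analysed, and thin outlines keep narrow peaks visible. Between its first and last gene analysed, Hoxa has peaks in its middle, Hoxb has them around Hoxb4, and Hoxc and Hoxd have none.

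The acetylated block began close to the midpoint of the cluster and ran towards the 5′ end, and how the cluster is divided decides the direction of a comparison of its ends. Split at the middle of its length, the 3′ part of Hoxa was covered over 0.725%, 1.27% and 2.46% and the 5′ part over 17.4%, 12.8% and 16.7%. The difference, 3′ minus 5′, was -14.1 ± 2.56 percentage points (SD, n = 3), negative in 3 of 3 libraries (exact sign-flip permutation test, two-sided, p = 0.25, the smallest possible). Split between paralogue groups 8 and 9 instead, the difference turned to 4.29 points in favour of the 3′ part. The peaks of Hoxa7 and of the distal Hoxa3 promoter then count towards the 3′ side. In Hoxb, split at the middle, the 3′ part was covered over 2.34%, 3.18% and 2.68% and the 5′ part held no peak. The difference was 2.74 ± 0.420 points (SD, n = 3), positive in 3 of 3 libraries (exact sign-flip permutation test, two-sided, p = 0.25). Of the genes analysed, that 5′ part holds only Hoxb9 and Hoxb13. The 3′ part holds all the others, among them Hoxb5 to Hoxb8, which had no TSS-proximal peak. Split between paralogue groups 8 and 9, the difference was 2.67 points.

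At the 3′ end of Hoxa, Hoxa2, a regulator of hindbrain and skeletal patterning, had no TSS-proximal peak. Its start lay 27.2, 26.6 and 6.04 kb from the nearest peak. The short distance in replicate 3 comes from a single peak outside the genes analysed, at the noncoding RNA gene Hotairm1, with a fold enrichment of 4.88. Fold enrichment is the ratio of fragments at a summit to the local background of the same library, as the authors' peak caller gave it, and it is not scaled between libraries.

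Hoxa3, best known for patterning of the pharyngeal organs, had the highest summit of any Hox gene by fold enrichment in each library. Its highest fold enrichment was 9.49, 8.33 and 11.5 in replicates 1 to 3 (mean 9.76 ± 1.58, SD, n = 3). The summits held 32, 34 and 48 fragments, with exact Poisson 95% intervals of 21.9 to 45.2, 23.5 to 47.5 and 35.4 to 63.6 that cover counting error only. Replicate 3 had the highest and replicate 2 the lowest fold enrichment. Replicate 1 had the fewest fragments, and all 3 intervals of the fragment counts overlap. By fragments, the Hoxa7 summit was higher in replicates 1 and 2, with 38 and 36, and lower in replicate 3, with 38. The Hoxa3 value belongs to 1 part of that gene only. GENCODE draws Hoxa3 from 52169062 to 52213336, across Hoxa4, Hoxa5 and Hoxa6, and its distal starts at 52213115 and 52213336 lay inside a peak in all 3 libraries. The start nearest to its start codon, at 52183855, lay 7.19 to 8.14 kb from any peak in the 3 libraries, so with that TSS alone Hoxa3 has no TSS-proximal peak. The readthrough gene Gm28308 begins beside the more upstream of these starts, and the peak lists cannot say which transcript the acetylation belongs to.

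Hoxa4, a gene of axial skeleton patterning, had the lowest values of the genes found in all 3 libraries. Its fold enrichments were 6.69, 4.06 and 5.50 (mean 5.42 ± 1.32, SD, n = 3), at 21, 12 and 18 fragments. Replicate 1 was highest and replicate 2 lowest. The single annotated start, at 52191753, was inside no peak. It lay 239, 102 and 117 bp from the nearest one, in a gap of 340 bp between the region just inside the gene, found in 2 libraries, and the region upstream of it, found in all 3. A stricter threshold of 5 on the -log10 q-value removed the peak of replicate 2 and left Hoxa4 with 2 libraries.

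Hoxa5, a tumour suppressor candidate and regulator of lung and skeletal development, and Hoxa6 started within a stretch of 17.2 kb that was free of peaks in every library. Hoxa5 lay 7.83, 5.02 and 6.85 kb from the nearest peak. Hoxa6 had a single TSS-proximal peak, just beyond that stretch in replicate 2, of fold enrichment 3.31 and 9 fragments, and in replicates 1 and 3 its start lay 3.70 and 2.71 kb from a peak. These distances lie just outside the 2.5 kb window, while the peak in replicate 2 lay 882 bp away.

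Hoxa7, a gene active in stem and progenitor cells and often raised in leukaemias with KMT2A fusions, had peaks spread along its length. It had 5, 7 and 5 TSS-proximal peaks with a highest fold enrichment of 8.10, 7.40 and 10.8 (mean 8.78 ± 1.81, SD, n = 3). Peaks covered 4123, 2914 and 4378 bases of the gene. Replicates 1 and 2 were close to each other and replicate 3 was higher. A pair of its summits recurred at almost the same base. The summit in its intron lay at 52217809, 52217826 and 52217815, a spread of 17 bp, with fold enrichments of 7.89, 6.82 and 10.8. The summit in its most upstream exon lay at 52221573, 52221574 and 52221593, a spread of 20 bp, with 38, 36 and 37 fragments. The local background there was 1.98, 1.98 and 2.47 times the genome-wide level, and the fold enrichments, which are divided by it, were 8.10, 7.40 and 6.23.

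Of the 5 annotated starts of Hoxa7, 3 lay beside peaks in every library. Those 3 protein-coding starts, at 52217505, 52218711 and 52221854 were 6 to 123 bp, 47 to 379 bp and 95 to 105 bp from the nearest peak in the 3 libraries. The protein-coding start nearest to the start codon, at 52217452, lay 32 and 159 bp from a peak in replicates 1 and 2 and inside one in replicate 3. The start at 52220393, of a transcript annotated as subject to nonsense-mediated decay, was inside a peak in all 3. Across genes with a TSS-proximal peak in all 3 libraries, 65.2% had a start inside a peak in every library. Of the 5 Hox genes, Hoxa3 and Hoxa7 did, Hoxa9 in 2 libraries, Hoxb4 in 1 and Hoxa4 in 0.

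Hoxa9, which drives progenitor self-renewal and cooperates with Meis1 in acute myeloid leukaemia, had acetylation on both sides of its protein-coding starts. Its highest fold enrichment was 7.09, 5.95 and 6.70 (mean 6.58 ± 0.576, SD, n = 3). It had 6 TSS-proximal peaks in replicate 1 and 3 in each of the others. On the 3′ side, a region in all 3 libraries had its summits at 52225896, 52225953 and 52225939, with fold enrichments of 7.09, 5.95 and 6.09. On the 5′ side, another had its summits at 52229126, 52229069 and 52229109, with 5.42, 5.40 and 6.70. Both sets of summits spread over 57 bp.

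Between these regions lay a gap of 2.70 kb without a peak in any library, and it held the starts of both protein-coding transcripts of Hoxa9. The start at 52227370, whose promoter is printed above, lay 1.24, 1.26 and 1.26 kb from the nearest peak. The start at 52226189 lay 54, 78 and 78 bp from one. The lists hold no value inside the gap.

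Towards the 5′ end the peaks stopped. Hoxa10, a regulator of uterine and myeloid development, had 1 peak in replicate 1, of fold enrichment 4.66 and 17 fragments, which lay 2.48 kb from the start of a noncoding transcript and just inside the window. In replicates 2 and 3 the same start was 3.73 and 2.95 kb from a peak. Its protein-coding starts were 4.10 to 11.3 kb from any peak. Hoxa11, needed for limb and kidney development, was 15.0 to 16.2 kb away, and Hoxa13, of the distal limb and the urogenital tract, was 30.0 to 31.2 kb away.

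**Figure D4:**
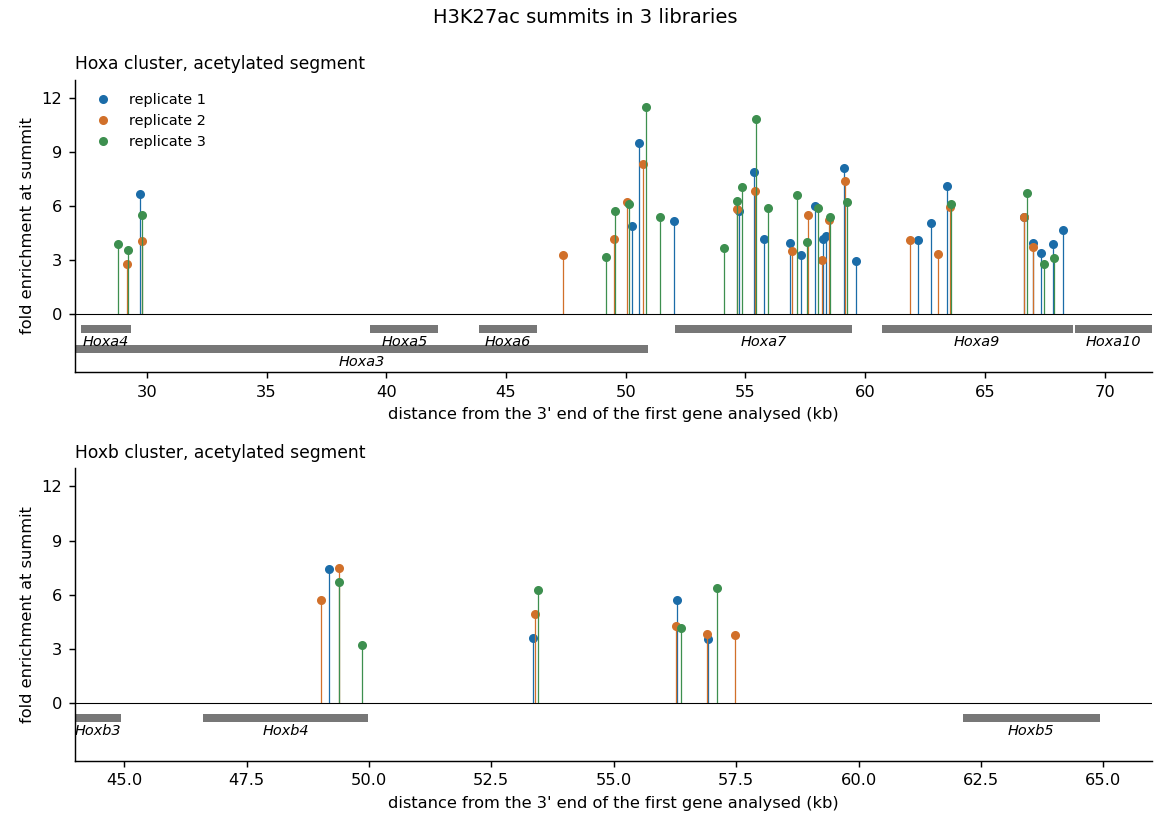
Fold enrichment (y axis) at each H3K27ac summit against the distance in kb from the 3′ end of the first gene analysed (x axis), for the acetylated segments of Hoxa (top) and Hoxb (bottom). Colours mark the 3 libraries and grey bars the genes. The highest summits stand at the distal start of Hoxa3, with 9.49, 8.33 and 11.5, and gaps are seen over Hoxa5 and within Hoxa9.

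Hoxb, on the plus strand of chromosome 11, had 1 acetylated gene. Hoxb4, whose overexpression expands blood stem cells, had a highest fold enrichment of 7.43, 7.47 and 6.71 (mean 7.20 ± 0.429, SD, n = 3), at 22, 22 and 20 fragments. The 3 libraries gave nearly the same value. The summits lay at 96319046, 96318864 and 96318903, all in an exon of Hoxb4 downstream of its start at 96318267. Only replicate 3 had a further peak over the start itself, with a fold enrichment of 3.20, while in replicates 1 and 2 the start lay 524 and 475 bp from a peak.

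The other acetylated regions of Hoxb lay between Hoxb5 and Hoxb4. The nearest to Hoxb4 had fold enrichments of 3.59, 4.91 and 6.25 (mean 4.92 ± 1.33, SD, n = 3) with summits within 56 bp of each other. The next had 5.70, 4.25 and 4.15 (mean 4.70 ± 0.868, SD, n = 3) with summits within 64 bp. The furthest had 3.53, 3.80 and 6.39 (mean 4.57 ± 1.58, SD, n = 3) with summits within 172 bp. Replicate 3 was highest at the nearest and the furthest of these regions and lowest at the one between, so no library stood above the others throughout. All 3 regions were seen in every library, and none lay within 2.5 kb of a Hox start.

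The remaining 9 Hoxb genes had no TSS-proximal peak in any library. Hoxb3 was nearest, at 3.87 to 3.95 kb, followed by Hoxb5 at 6.97 to 7.54 kb. Hoxb6, Hoxb7, Hoxb8 and Hoxb9 on the 5′ side, and Hoxb2 and Hoxb1 on the 3′ side, lay further away, and Hoxb13, set apart at the far 5′ end, was furthest at 116 to 117 kb. Taking the cluster from Hoxb1 to Hoxb13, 48.9, 48.9 and 48.8 kb at the 3′ end and 117, 116 and 117 kb at the 5′ end were free of peaks.

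In Hoxc and Hoxd no gene was acetylated by this measure. The 9 Hoxc genes, Hoxc4, Hoxc5, Hoxc6, Hoxc8, Hoxc9, Hoxc10, Hoxc11, Hoxc12 and Hoxc13, lay 129 to 254 kb from the nearest peak. The 9 Hoxd genes, Hoxd1, Hoxd3, Hoxd4, Hoxd8, Hoxd9, Hoxd10, Hoxd11, Hoxd12 and Hoxd13, lay 62.8 to 121 kb away. The first peaks beyond Hoxd were at Mtx2, a mitochondrial protein gene on the 3′ side, and at Lnpk, an endoplasmic reticulum gene on the 5′ side, in all 3 libraries. At Mtx2 they stood 60.7, 60.6 and 60.7 kb from the last Hox gene with fold enrichments of 4.99, 6.00 and 7.47. At Lnpk they stood 89.4 kb away in each library with 4.16, 4.25 and 4.92. Peaks were thus called on both sides of the empty cluster.

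Levels at the acetylated Hox genes were set against those of all protein-coding genes with a TSS-proximal peak in the same library. Taking each gene's highest fold enrichment, the median was 7.26 over 6 Hox genes in replicate 1, 6.68 over 6 in replicate 2 and 6.71 over 5 in replicate 3. Over 10137, 10381 and 10348 protein-coding genes it was 9.07, 9.26 and 10.7. The ratio was 0.800, 0.721 and 0.625, or -0.49 ± 0.18 (SD, n = 3) on the log2 scale, and was below 1 in 3 of 3 libraries (exact sign-flip permutation test, two-sided, p = 0.25, the smallest possible). Both medians leave out genes with no peak. Hoxa3 stood at percentiles 53.0, 43.1 and 54.6 of the protein-coding genes, near the middle. Hoxa7 stood at 43.2, 35.4 and 50.8, Hoxb4 at 37.2, 35.6 and 22.3, Hoxa9 at 34.8, 23.1 and 22.2, and Hoxa4 at 31.6, 7.26 and 12.8. By their means the order was Hoxa3, Hoxa7, Hoxb4, Hoxa9 and Hoxa4, and the ranges of 1 SD around the means of neighbours in that order overlapped. Those SDs include differences between libraries. Within each library neighbours kept that order, except in replicate 2, where Hoxb4 had 7.47 and Hoxa7 7.40. Hoxb4 and Hoxa9 were almost equal in replicate 3, with 6.705 and 6.703. The order was not tested.

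**Figure D5:**
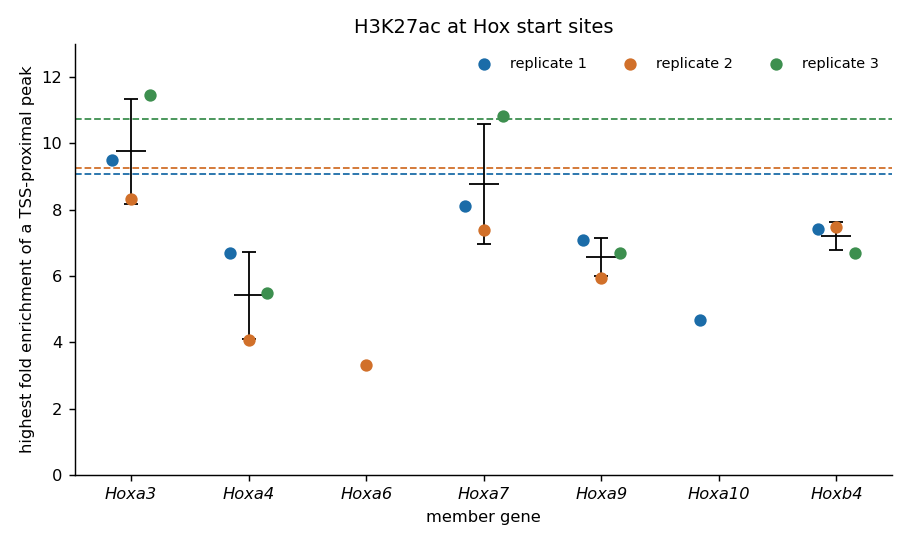
Highest fold enrichment of a TSS-proximal H3K27ac peak (y axis) for the 7 Hox genes with a peak in any library (x axis). Points are libraries, black lines the mean with the SD of 3 libraries, and dashed lines, in the colour of each library, the median of all protein-coding genes with such a peak. Hoxa3 lies at 8.33 to 11.5 and Hoxa4 at 4.06 to 6.69, while Hoxa6 and Hoxa10 have 1 point each.

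When overlapping peaks of the 3 libraries were merged, Hoxa held 20 regions and Hoxb 5. Of the 20 in Hoxa, 8 were found in all 3 libraries, 2 in 2 and 10 in 1. Of the 5 in Hoxb, 4 were found in all 3 and 1 in 1. Together 48.0% were found in all 3, against 41.3% of 34595 regions over all chromosomes. The 8 regions of Hoxa had a G+C content of 47.0% to 62.7% (median 58.4%) and the 4 of Hoxb of 46.3% to 63.3% (median 56.1%). The median over the 14280 regions found in all 3 libraries was 56.6%. Requiring each peak of a pair to overlap the other by 50% left 5 in Hoxa, and the stricter q-value left 1 in Hoxb, that of Hoxb4.

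Neighbouring peaks were stitched across gaps up to a set distance, as is done to find super-enhancers, and ranked in each library by the sum of fold enrichment times length. The block from Hoxa3 to Hoxa9 ranked 147 of 11779 in replicate 1, 399 of 12327 in replicate 2 and 171 of 11525 in replicate 3, at percentiles 98.8, 96.8 and 98.5. In all 3 libraries its rank was past slope 1 of the scaled curve of signal, a cut used to call super-enhancers. So were 1383, 1083 and 1190 stitched regions, or 11.7%, 8.79% and 10.3% of them. The study ranked enhancers by tag count instead and reported far fewer super-enhancers. Passing the cut here is therefore not the same as a super-enhancer call by the study. By its own ranking of these libraries, the study did associate Hoxa7 and Hoxa9 with super-enhancers. The Hoxb4 region spanned 8.33, 8.92 and 8.62 kb, stood at percentiles 68.8, 75.8 and 69.2 and was not past that point in any library. The peaks at Hoxa4 stood apart from the block and were not past it either.

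The clusters also hold genes for noncoding RNAs, and in 2 of 16, both of them microRNA genes, every library held a TSS-proximal peak. The share was 43.9% among all protein-coding genes, and none was computed over all noncoding genes. Mir196b, which lies inside the Hoxa9 gene model near its 5′ end, had fold enrichments of 5.42, 5.40 and 6.70 at the region on the 5′ side of Hoxa9. Mir10a, between Hoxb4 and Hoxb5, had 7.43, 7.47 and 6.71, which are the values of the Hoxb4 peak, since that peak is also near its start. Their partners in other clusters, Mir196a-1 and Mir196a-2 in Hoxb and Hoxc and Mir10b in Hoxd, had none. The peaks with these values are also assigned to Hoxa9 or Hoxb4, and the peak lists cannot say which gene they belong to. Mir10a had a further peak in every library that is assigned to no Hox gene. It is the region between Hoxb5 and Hoxb4 nearest to Hoxb4, with fold enrichments of 3.59, 4.91 and 6.25. That region lay 2045, 1965 and 2191 bp from the start of Mir10a. The mature sequences are from RefSeq, with the seed, bases 2 to 8, in capitals. Each of the 2 microRNA genes with a nearby peak shares its seed with a partner that had none.
miR-10a-5p: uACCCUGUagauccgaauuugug
miR-10b-5p: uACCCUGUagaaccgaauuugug
miR-196a-5p: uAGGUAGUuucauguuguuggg
miR-196b-5p: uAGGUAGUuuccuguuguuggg
Counted from 1 at the 5′ end, the 10a and 10b forms differ by U12A and the 196a and 196b forms by A12C, both outside the seed. Both families are known to target Hox messenger RNAs.

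Genes that work with Hox proteins, or that control Hox genes, were read from lists by the same rule. Of 9 genes for the TALE homeodomain cofactors, 5 were acetylated near a start in every library, a share near the 43.9% of all protein-coding genes. Among them Meis1, the partner of Hoxa9, had fold enrichments of 4.87, 5.50 and 6.65, and Pbx3 had 5.77, 5.00 and 7.07. Of 9 regulators of Hox genes, 5 likewise had a peak in all 3 libraries, again near that share. Kmt2a, the methyltransferase that maintains Hox expression, had 7.95, 7.88 and 11.5, and Men1, its partner, had 5.17, 3.20 and 5.21. No Cdx gene, the caudal-type activators of Hox genes in the embryo, had a peak in at least 2 libraries.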

How the data were processed

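The authors trimmed reads, aligned them to GRCm38 and called peaks in each library separately. The submitters' processing notes name cutadapt 1.7, Bowtie2, MACS2 2.1.1 and deepTools 2.5.3. The deposited lists give, for each summit, a fold enrichment (a ratio to local background within the library), the −log10 of its p-value and of its q-value, and a score, which was not used. The control and caller settings were not given in the sources used here.

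Rows with the same interval made 1 peak, valued by the highest fold enrichment among them, on chromosomes 1 to 19, X and Y. GENCODE M21 gave genes and TSSs, and RefSeq GRCm38.p6 gave sequences. Coordinates are in GRCm38, counted from 1. Overlap was at least 1 bp. The fold enrichment and p-value of a summit were solved together for its fragments (largest gap in −log10 p 0.001, 100% of sampled rows solved), with a scale of 0.983 for replicate 3 and 1 for the others. Depth follows from the genome-wide background, given 200 bp fragments and the caller's built-in mouse genome size. Duplicate reads without molecular identifiers are not independent molecules, so intervals cover counting error only.

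The labels number the libraries as replicates, and per the study's methods they came from separate mice. Libraries were compared with an exact sign-flip permutation test (two-sided, smallest p 0.25 with 3 libraries). The summit equations, coverage, TSS assignment, region merging and sign-flip test were tested on simulated data, and stitching was not. Alternatives were a −log10 q of 5 or more, TSS windows of 1 kb and 5 kb, other TSS, flank, split, overlap and stitching choices, the p-value as the level, and leaving out each library. All 38 genes are named, those with a TSS-proximal peak with each value, and other lists are given by count with examples from genes with a peak in 2 or more libraries. Hotairm1, Gm28308, Gbx2, Evx1, Evx2, the Cdx genes, Mir10b, Mir196a-1 and Mir196a-2 fall outside that rule and were named after their values were seen. The genes and lists were chosen with earlier results of these data known. Software was Python 3.11.15, numpy 2.4.6, pandas 2.3.3, scipy 1.17.1, matplotlib 3.10.9 and samtools 1.23.1.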

Additional observations from a re-analysis of the deposited data

How the results depend on the processing

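With a TSS window of 5 kb, 8 genes in place of 5 had a peak in at least 2 libraries and equally in all of them, the additions being Hoxa6, Hoxa10 and Hoxb3. The stricter -log10 q of 5 moved the covered share of Hoxb from 1.11% to 0.690% and its regions in all 3 libraries from 4 to 1. Without flanks the covered share was 8.55% in Hoxa and 1.37% in Hoxb. The difference between the 3′ and the 5′ part of Hoxa reversed, to 4.29 points, when split between paralogue groups 8 and 9. A reciprocal overlap of 50% left 5 of 8 regions of Hoxa. The percentile of the Hoxb4 stitched region became 77.6 with stitching within 5 kb, 66.7 within 20 kb and 91.3 by length alone, and that of the Hoxa block became 99.7 by length alone. The remaining 30 of 42 values under these settings, and all 36 from leaving out 1 library, kept their direction where tested, and otherwise stayed within the SD between libraries or, for counts, within 1.5 times. Of 24 mean fold enrichments of single genes, 23 stayed within that SD, and that of Hoxa9 became 7.40 with the 5 kb window. With only the TSS closest to the start codon, Hoxa3 has no value. The causes of these changes were not tested. No paired analysis was possible because the peak lists analysed belong to 1 group. Acetylation too weak to be called as a peak is outside these lists.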

Other observations

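Of 10 genes that border the clusters, 5 were acetylated near a start in 2 or more libraries and 4 in all 3, shares near the 46.9% and 43.9% of all protein-coding genes. Beside Hoxa, Skap2, a kinase-associated adaptor, had fold enrichments of 9.30, 5.64 and 8.11. Beside Hoxc, Cbx5, which encodes heterochromatin protein HP1α, had 8.54, 7.50 and 12.4. The homeobox genes Evx1 and Evx2, which adjoin the 5′ ends of Hoxa and Hoxd, had no peak in any library. Of 13 other homeobox genes of the same class, Evx1 and Evx2 included, 0 had a peak in at least 2 libraries, and Gbx2 had one in replicate 1 alone, of 5.80. No difference between these lists and the Hox genes was tested.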
